A study of Mus musculus with 24 samples.

Results

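The genes described here are 40 genes of collagens, matrix glycoproteins, proteoglycans, collagen crosslinking enzymes and stellate cell markers, taken by symbol from a liver count table with 34436 symbols. The list was given by name and its rule uses no measured value, but it was put together with earlier results of these data known. All 40 symbols had a row in the table, and 39 passed the filter on low counts and were tested. Versican (Vcan) did not pass and is described by its reads.

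The study fed diets to C57BL/6 wild type mice for 8 weeks, starting when the mice were 8 to 10 weeks old, and sequenced total RNA of whole liver. The groups used here are normal chow (NC, 4 libraries), high sucrose (HS, 5 libraries), high sucrose with 2% cholesterol (HS_Chol2%, 3 libraries), 2% cholesterol with cholic acid (Chol2%_CA, 4 libraries) and cholic acid (CA, 4 libraries). Cholic acid is a bile acid that raises cholesterol uptake from the gut, and its amount in the feed is not given in the sources used here. All groups share strain and genotype, and sample titles number the livers without stating that each came from a separate animal, so p-values measure the spread between these samples. One sample titled HS carries a diet label of normal chow, and it could not be tied to a column.

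Collagens are triple-helical proteins that give tissue its tensile strength. The fibrillar types I, III and V form fibres, type VI forms beaded filaments, and type IV builds the sheet-like basement membrane together with laminins and nidogen. In injured liver, hepatic stellate cells turn into contractile cells that secrete fibrillar collagens, lysyl oxidases crosslink these fibres, and fibronectin and small proteoglycans organise them. Hepatocytes make the plasma form of fibronectin and much of the collagen XVIII of the liver.

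Library depth ran from 6110484 to 10244277 reads, and values are CPM, counts per 1000000 reads of effective library size. At this depth 3 reads correspond to between 0.293 and 0.492 CPM. In 8 of the 20 libraries the counts fell, relative to the gene means over all libraries, with increasing transcript length (called negative length trend here): NC library 3, HS libraries 0, 1 and 2, HS_Chol2% library 0, CA library 0 and Chol2%_CA libraries 0 and 1, in the table's own numbering from 0. In the other 12 libraries the trend was positive. Spearman's rho ran from -0.352 (CA library 0) to -0.0467 (HS_Chol2% library 0) in the negative libraries. In the positive libraries it ran from 0.0506 (CA library 3) to 0.323 (Chol2%_CA library 3), so the sign split libraries with rho near 0. Within diets 15 of the 39 tested members were higher and 2, Fn1 and Col18a1, were lower in the libraries of negative trend (edgeR quasi-likelihood test with Benjamini-Hochberg adjustment), where 24.3% and 22.4% of 12595 genes tested were called in these directions. The trend was computed from these same counts, so the split was not independent of the values tested. These calls only describe which genes follow the trend. The fits without the negative-trend libraries given below rest on the same split. The 3 HS_Chol2% libraries stood apart by 673 to 900 reads on light-strand mitochondrial tRNAs per 1000000 heavy-strand mitochondrial mRNA reads, against 8.95 to 83.4 in all other libraries. That feature and the HS_Chol2% diet cannot be told apart. The strand counted is not given in the sources used here, so the values of 13 members whose exons overlap a gene on the other strand (Col4a1, Col4a2, Col5a1, Col15a1, Lama2, Nid1, Fbn1, Fn1, Eln, Thbs1, Lox, Loxl2 and Des) may hold reads of that gene.

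Many of the matrix genes tested were called higher in Chol2%_CA liver than in chow liver, with the highest fitted fold changes for Col1a1, Lox, Col1a2 and Col3a1. Of these, Lox passed the filter on low counts only through its Chol2%_CA libraries. Against NC, 22 of the 39 tested members rose and 0 fell, with a median log2 fold change of 0.90 over the members against -0.00 over all genes tested. The share of all 12595 genes called at an adjusted p under 0.05 was 15% higher and 9.35% lower (edgeR quasi-likelihood test, Benjamini-Hochberg adjustment over all genes). At an unadjusted p under 0.05, 25 members were higher and 1, Col18a1, was lower, and DESeq2 called 23 higher and 1, Col18a1, lower. In 17 of the 39 members every Chol2%_CA library lay above every NC library, which held for 14.3% of genes tested. In 14 members every Chol2%_CA library lay above all 16 libraries of the other diets, against 5.99% of genes tested. In whole liver, more cells of a type and more RNA per cell cannot be told apart.

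Against NC the other diets gave few calls among these genes, beside 0.214% to 5.22% of all genes called in either direction. A gene not called in groups of 3 to 5 libraries may still differ. In HS against NC 0 members were called (0.214% of all genes were called higher and 0.437% lower), with 0 higher and 3 lower at an unadjusted p under 0.05 and 0 calls by DESeq2. In HS_Chol2% against NC 0 members were called higher (1.71% of all genes) and 1 lower (0.564%), the basement membrane collagen Col15a1. At an unadjusted p under 0.05 there were 1 higher and 1 lower in that comparison, and DESeq2 called 0 higher and 1 lower. In CA against NC 1 member, Nid1, rose (5.22% of all genes were called higher) and 0 fell (4.61%), with 2 higher and 4 lower at an unadjusted p under 0.05 and 1 higher and 0 lower by DESeq2. Adding cholesterol to sucrose, HS_Chol2% against HS, gave 0 calls among the members (1.6% of all genes higher and 0.651% lower), with 6 higher and 1 lower at an unadjusted p under 0.05 and 0 by DESeq2. Adding cholesterol to cholic acid, Chol2%_CA against CA, gave 26 members higher (13.4%) and 0 lower (7.8%), with a median log2 fold change of 1.15 over the members against 0.02 over all genes. At an unadjusted p under 0.05 that comparison had 30 higher and 0 lower, and DESeq2 called 27 higher and 0 lower. It shares the Chol2%_CA libraries with the comparison against NC.

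The heat map of all members shows this pattern library by library.

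**Figure D1:**
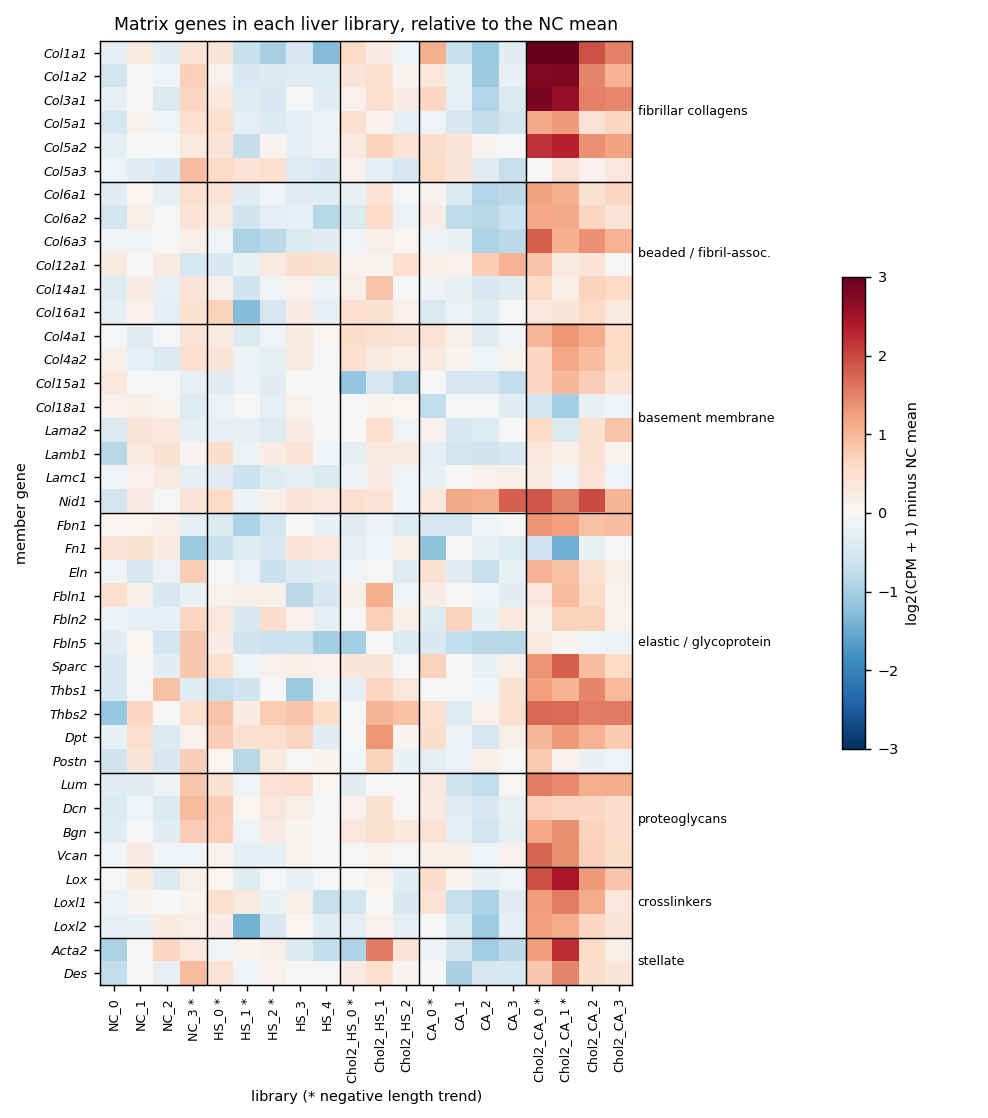
Colour gives log2(CPM + 1) of each of the 40 member genes (rows, by role) in each of the 20 libraries (columns, by diet; a star marks a negative length trend) minus the mean of the 4 NC libraries, with colours saturated beyond 3 on either side. The Chol2%_CA columns are red for most rows, deepest for Col1a1, Col1a2 and Col3a1 in libraries 0 and 1, while Fn1 and Col18a1 are blue in the starred columns of several diets.

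The 6 fibrillar collagens were the group with the highest median log2 fold change in Chol2%_CA against NC among the 3 structural groups compared, 2.19, and 5 of the 6 rose. The 8 basement membrane genes had a median of 0.65 with 4 of 8 higher, and the 11 elastic fibre and glycoprotein genes a median of 0.85 with 5 of 11 higher. These medians describe the lists, and the difference between the lists was not tested. All 6 fibrillar collagens were called higher in libraries of negative length trend, by log2 0.52 for Col5a2 to 1.24 for Col1a1. No basement membrane gene was called higher there, and Col18a1 was lower. That trend was present in 2 of 4 Chol2%_CA libraries and 1 of 4 NC libraries, and its part in the medians was not tested. Over all libraries the log2 fold changes ran from 0.12 to 3.11 (fibrillar), -0.45 to 1.65 (basement membrane) and -0.58 to 1.92 (glycoproteins). Without the negative-trend libraries these ranges were 0.53 to 1.91, -0.31 to 1.72 and -0.47 to 2.03. Col1a1 and Col1a2 encode the chains of type I collagen, the main fibre of scar. Col1a1 measured 9.74, 14.8, 9.47 and 16.2 CPM in the NC libraries and 26.6, 7.30, 5.13 and 9.67 CPM in the CA libraries. It measured 16.1, 7.33, 5.65, 8.44 and 4.35 CPM in HS and 18.8, 14.5 and 11.2 CPM in HS_Chol2%. In the 4 Chol2%_CA libraries Col1a1 measured 159, 188, 49.0 and 36.9 CPM. All 4 lay above the other 16 libraries, and the pair of Chol2%_CA libraries with negative length trend lay above the other pair. Col1a1 rose 8.61-fold against NC, or 3.11 ± 0.54 on the log2 scale (SE, adjusted p = 0.00022). Without the negative-trend libraries that log2 fold change was 1.91 ± 0.28 (adjusted p = 0.000431). Col1a2 rose by 2.21 ± 0.38 on the log2 scale (adjusted p = 0.000184), which was 1.54 ± 0.26 without the negative-trend libraries (adjusted p = 0.00106), and its Chol2%_CA libraries measured 97.5, 98.5, 38.4 and 28.4 CPM against 5.72 to 22.4 CPM in all others. Type I collagen protein holds a pair of Col1a1 chains for each Col1a2 chain. The ratio of Col1a1 to Col1a2 reads was 0.722 to 1.13 in NC and 1.28 to 1.91 in Chol2%_CA. CA library 0, of negative trend, had a ratio of 1.56. Reads are not corrected for merged exon length (6.56 kb for Col1a1 and 12.4 kb for Col1a2), so their ratio is not the ratio of chains. Per kb of that length the means of Col1a1 and Col1a2 were 1.91 and 1.14 CPM in NC and 16.5 and 5.29 CPM in Chol2%_CA.

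Col3a1, the chain of type III collagen that co-assembles with type I in young fibres, measured 28.1, 33.9, 24.4 and 52.5 CPM in NC and 51.8, 27.9, 17.7 and 24.3 CPM in CA. Its levels were 41.7, 25.7, 23.4, 32.2 and 26.1 CPM in HS and 36.4, 46.8 and 38.9 CPM in HS_Chol2%. The Chol2%_CA libraries held 241, 214, 96.5 and 91.6 CPM of Col3a1. None of them overlapped any other diet, and Col3a1 rose 4.62-fold against NC (log2 2.21 ± 0.35, SE, adjusted p = 8.53e-05) and by log2 2.40 ± 0.35 against CA (adjusted p = 0.000124). Type V collagen regulates fibre diameter, and 2 of its 3 chains rose. Col5a2 rose by 2.18 ± 0.31 on the log2 scale (adjusted p = 3.16e-05) and Col5a1 by 0.91 ± 0.26 (adjusted p = 0.0129). Col5a2 lies tail to tail with Col3a1 on chromosome 1, with a gap of 24.6 kb. Col5a3 had the highest mean CPM of the fibrillar collagens in NC, HS, HS_Chol2% and CA, while in Chol2%_CA Col3a1 (161 CPM) and Col1a1 (108 CPM) lay above it (68.5 CPM). Col5a3 measured 53.7, 45.8, 42.0 and 111 CPM in NC and 86.3, 76.0, 45.7 and 35.6 CPM in CA. It stood at 88.5, 78.5, 82.0, 44.2 and 42.3 CPM in HS, 63.6, 48.4 and 41.8 CPM in HS_Chol2% and 57.9, 78.6, 63.4 and 74.1 CPM in Chol2%_CA. The diets overlapped throughout, NC library 3 was the highest of all, and the log2 fold change in Chol2%_CA against NC was 0.12 ± 0.32 (adjusted p = 0.838).

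The windows upstream of the start sites are shown for the 3 fibrillar collagen genes whose window, from RefSeq on GRCm38.p6, overlapped no annotated exon: Col3a1 and Col5a1, which rose in Chol2%_CA, and Col5a3, which was not called. Each window holds the 250 bases before the start, printed 5′ to 3′ on the strand of the gene, at chr1:45311288-45311537 (plus strand) for Col3a1, chr2:27886175-27886424 (plus strand) for Col5a1 and chr9:20815068-20815317 (minus strand) for Col5a3. Capitals mark matches, on either strand, to TATAAA (the TATA box), to the box CCAAT, to the core of a GC box (GGGCGG), to the AP-1 site TGAGTCA and to the Smad-type element CAGACA.
Col3a1: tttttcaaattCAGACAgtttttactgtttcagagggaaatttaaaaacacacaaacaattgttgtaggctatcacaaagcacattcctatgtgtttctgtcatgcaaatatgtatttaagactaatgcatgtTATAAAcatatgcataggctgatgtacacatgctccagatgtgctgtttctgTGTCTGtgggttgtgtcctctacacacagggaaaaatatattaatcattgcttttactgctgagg
Col5a1: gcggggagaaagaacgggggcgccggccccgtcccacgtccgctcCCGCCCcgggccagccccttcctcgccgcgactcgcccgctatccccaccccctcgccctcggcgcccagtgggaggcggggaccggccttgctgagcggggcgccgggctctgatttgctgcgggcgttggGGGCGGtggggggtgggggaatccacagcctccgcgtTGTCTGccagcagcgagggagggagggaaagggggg
Col5a3: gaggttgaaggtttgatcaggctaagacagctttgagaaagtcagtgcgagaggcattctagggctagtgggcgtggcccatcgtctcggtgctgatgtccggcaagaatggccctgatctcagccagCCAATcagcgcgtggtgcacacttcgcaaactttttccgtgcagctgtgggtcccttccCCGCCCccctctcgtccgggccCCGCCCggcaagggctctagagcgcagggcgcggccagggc
The windows differ in base composition, with 35.2% G and C in Col3a1, 76.4% in Col5a1 and 62.8% in Col5a3. The Col3a1 window holds CAGACA matches that begin 239 and 65 bases upstream and a TATAAA match 117 bases upstream. The Col5a1 window holds GGGCGG matches 205 and 73 bases upstream and a CAGACA match 36 bases upstream. The Col5a3 window holds a CCAAT match 122 bases upstream and GGGCGG matches 63 and 41 bases upstream. Windows were found for 27 of the 40 members, 32 windows in all, and Col1a1 was not among them. Of these 32 windows 53.1% held GGGCGG, against 32.7% of all 32851 windows of that length, and 31.3% held CAGACA, against 17.1%. The shares were 34.4% and 33.8% for CCAAT, 9.38% and 12.4% for TATAAA, and 3.13% and 4.46% for TGAGTCA. A match is a description of the letters and not a measured site.

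The beaded and fibril-associated collagens rose in 3 of 6 members, all of them chains of type VI collagen, which surrounds cells with microfilaments. Col6a3 measured 10.3, 10.2, 10.5 and 12.8 CPM in NC and 9.76, 9.42, 5.23 and 5.84 CPM in CA. It measured 9.96, 5.21, 5.96, 7.76 and 8.40 CPM in HS and 9.90, 12.4 and 11.3 CPM in HS_Chol2%. In Chol2%_CA it measured 40.5, 23.8, 29.7 and 23.6 CPM, and these 4 libraries lay above all others. The log2 fold change of Col6a3 was 1.42 ± 0.22 against NC (adjusted p = 8.19e-05) and 1.96 ± 0.23 against CA (adjusted p = 1.3e-05). Col6a1 and Col6a2, neighbours on chromosome 10 with a gap of 85.2 kb, rose with log2 fold changes of 0.89 ± 0.26 (adjusted p = 0.0166) and 0.90 ± 0.32 (adjusted p = 0.0455). Col6a2 was not called without the negative-trend libraries (log2 0.68 ± 0.27, adjusted p = 0.0849).

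Col14a1, a collagen that binds to the surface of fibres, measured 36.1, 55.1, 39.3 and 61.4 CPM in NC and 41.7, 40.3, 33.6 and 36.3 CPM in CA. Its levels were 51.8, 30.5, 43.9, 51.0 and 42.1 CPM in HS and 54.3, 85.8 and 46.4 CPM in HS_Chol2%, where library 1 was the highest of all 20. The Chol2%_CA libraries, at 71.3, 53.1, 75.5 and 71.9 CPM, overlapped NC and lay above CA. The log2 fold change of Col14a1 was 0.50 ± 0.21 against NC (adjusted p = 0.085) and 0.84 ± 0.21 against CA (adjusted p = 0.00638). Without the negative-trend libraries it passed against NC (log2 0.75 ± 0.24, adjusted p = 0.0422). Col12a1, a relative of Col14a1, and Col16a1 were not called in any comparison. Their Chol2%_CA log2 fold changes against NC were 0.48 ± 0.33 and 0.48 ± 0.37, with 1.70 to 7.12 CPM and 0.652 to 5.55 CPM over all libraries.

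In the basement membrane group Col4a1, Col4a2, Col15a1 and Nid1 rose in Chol2%_CA, and the laminin chains were not called against NC. Col4a1, a chain of the type IV network, measured 31.2, 26.2, 31.1 and 44.6 CPM in NC and 44.2, 36.2, 26.2 and 30.9 CPM in CA. It measured 40.3, 24.4, 29.8, 40.0 and 34.0 CPM in HS and 48.1, 45.2 and 42.8 CPM in HS_Chol2%. In Chol2%_CA it measured 66.5, 82.6, 71.8 and 50.3 CPM. These lay above all other libraries, with HS_Chol2% library 0 next below. Col4a1 rose by 1.03 ± 0.20 on the log2 scale against NC (adjusted p = 0.000574). Its partner Col4a2, which starts head to head with it on chromosome 8 with an overlap of 22 bases, rose by 0.82 ± 0.19 (adjusted p = 0.00359). The ratio of Col4a1 to Col4a2 reads was 0.943 to 1.47 over all 20 libraries.

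Nid1, nidogen, which bridges laminin and type IV collagen, rose in CA and in Chol2%_CA. Its levels were 10.6, 19.4, 15.4 and 21.7 CPM in NC, 20.6, 36.6, 34.8 and 58.7 CPM in CA and 63.1, 47.5, 66.5 and 34.0 CPM in Chol2%_CA. In HS they were 25.0, 14.5, 18.04, 21.9 and 21.0 CPM and in HS_Chol2% 23.0, 22.1 and 15.3 CPM. All Chol2%_CA libraries lay above NC, HS and HS_Chol2% and overlapped CA, of which library 0 lay within the NC range. The log2 fold change was 1.17 ± 0.28 for CA against NC (adjusted p = 0.0111), 1.65 ± 0.29 for Chol2%_CA against NC (adjusted p = 0.00021) and 0.48 ± 0.27 for Chol2%_CA against CA (adjusted p = 0.24). The call in CA was lost without NC library 0 (0.99, adjusted p = 0.0501) and without CA library 3 (0.87, adjusted p = 0.0618).

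Col15a1, a basement membrane collagen next to fibres, fell in HS_Chol2% and rose in Chol2%_CA. It measured 17.5, 13.6, 13.5 and 11.5 CPM in NC, 10.8, 12.1, 11.0, 13.7 and 14.1 CPM in HS and 5.59, 9.67 and 7.22 CPM in HS_Chol2%. In CA it measured 13.6, 9.54, 9.77 and 7.86 CPM and in Chol2%_CA 22.4, 28.8, 23.7 and 18.6 CPM. The HS_Chol2% libraries lay below all NC and HS libraries, and the Chol2%_CA libraries lay above all others. Col15a1 fell in HS_Chol2% against NC (log2 -0.90 ± 0.22, adjusted p = 0.0321) and rose in Chol2%_CA against NC (log2 0.74 ± 0.19, adjusted p = 0.00626). The fall was not called without NC library 0, 1 or 2 or without HS_Chol2% library 0 or 2, with log2 fold changes between -0.72 and -0.93 in those fits.

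Col18a1, whose collagen releases endostatin, was by far the most abundant collagen gene, with diet means of 129 to 180 CPM per kb of merged exon length (129 in Chol2%_CA). The next were Col5a3 in NC (9.29 CPM per kb) and Col1a1 and Col3a1 in Chol2%_CA (16.5 and 16.4 CPM per kb). It measured 1346, 1392, 1292 and 935 CPM in NC and 739.6, 1170.0, 1187 and 969.8 CPM in CA. It measured 1085, 1226, 1027, 1324 and 1180.4 CPM in HS and 1215, 1297 and 1273 CPM in HS_Chol2%. In Chol2%_CA it measured 836, 608, 1051 and 1140.3 CPM, which overlapped all other diets except HS_Chol2%. The log2 fold change against NC was -0.45 ± 0.18 (adjusted p = 0.0852), and it passed as lower with the length trend as a term in the fit (-0.37, adjusted p = 0.0392) and in DESeq2. The laminin chains Lama2, Lamb1 and Lamc1 had log2 fold changes of 0.56 ± 0.38, 0.21 ± 0.24 and 0.13 ± 0.15 in Chol2%_CA against NC. Lamb1 rose against CA (0.83 ± 0.24, adjusted p = 0.0191), and its 12.2, 10.8, 13.2 and 10.1 CPM in Chol2%_CA lay above the 7.64, 6.12, 5.82 and 6.48 CPM in CA.

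The plot of summed levels compares the groups within each library. The summed fibrillar collagens were 101 to 222 CPM in NC and 256 to 624 CPM in Chol2%_CA. The basement membrane genes without Col18a1 summed to 121 to 149 CPM in NC and 183 to 266 CPM in Chol2%_CA. The glycoproteins without Fn1 summed to 60.1 to 134 CPM in NC and 120.5 to 236 CPM in Chol2%_CA. The groups of libraries did not overlap for the first pair of sums and overlapped for the glycoproteins, where NC library 3 was highest among NC. The fibrillar sum per basement membrane sum was 0.797 to 1.49 in NC, 0.551 to 1.36 in CA and 1.02 to 2.46 in Chol2%_CA, ranges that overlap. Chol2%_CA libraries 0 and 1, of negative length trend, had 2.46 and 2.40. Libraries 2 and 3, of positive trend, had 1.02 and 1.40, within the NC range.

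**Figure D2:**
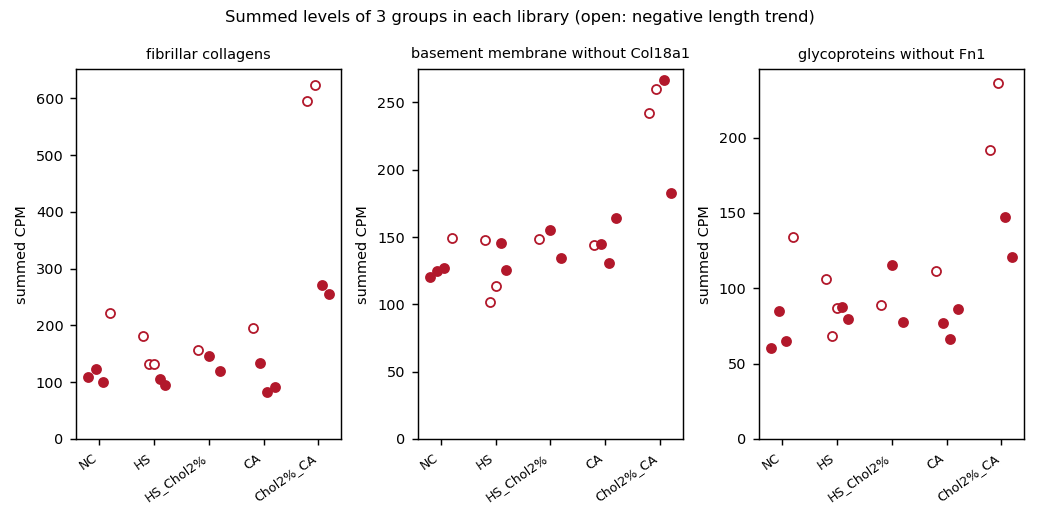
Summed CPM (vertical axis, from 0) of the fibrillar collagens, of the basement membrane genes without Col18a1 and of the glycoproteins without Fn1, with 1 point per library by diet and open points for a negative length trend. The Chol2%_CA points are the highest for fibrillar collagens (256 to 624 CPM) and basement membrane (183 to 266 CPM), and the open Chol2%_CA points lie above the filled pair for fibrillar collagens.

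Among the elastic fibre and glycoprotein genes Fbn1, Sparc, Thbs1, Thbs2 and Dpt rose in Chol2%_CA against NC, and Fn1, at 132 to 197 CPM per kb of merged exon length over the diet means and close to Col18a1, was not called. Fn1, fibronectin, measured 2825, 2901, 2514 and 989 CPM in NC and 925, 2038, 1829 and 1612 CPM in CA. It measured 1334, 1656, 1532, 2767 and 2699 CPM in HS and 1805, 2014 and 2433 CPM in HS_Chol2%. In Chol2%_CA it measured 1384, 781, 1859 and 2150.4 CPM. The ranges overlap, and in each diet the libraries of negative length trend were the lowest. The log2 fold change of Fn1 in Chol2%_CA against NC was -0.58 ± 0.34 (adjusted p = 0.248), and without the negative-trend libraries Fn1 fell in Chol2%_CA (-0.47 ± 0.13, adjusted p = 0.0177) and in CA (-0.59 ± 0.12, adjusted p = 0.00252). Together Fn1 and Col18a1 held 63.2% to 88.0% of all member CPM in NC and 42.4% to 74.9% in Chol2%_CA. Of the CPM of the remaining members, fibrillar collagens held 17.0% to 19.8% in NC and 21.1% to 33.6% in Chol2%_CA.

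Sparc, a collagen-binding glycoprotein, measured 36.2, 49.6, 39.7 and 89.2 CPM in NC and 82.4, 51.9, 42.6 and 57.05 CPM in CA. It measured 70.2, 46.6, 55.1, 58.2 and 55.3 CPM in HS and 64.8, 65.3 and 49.1 CPM in HS_Chol2%. In Chol2%_CA it measured 129, 176, 95.7 and 75.3 CPM, and only library 3 lay within the NC range, below NC library 3. Sparc rose by 1.15 ± 0.28 on the log2 scale (adjusted p = 0.0042). Fbn1, fibrillin, the backbone of elastic microfibrils, measured 4.30, 4.29, 4.67 and 3.27 CPM in NC and 2.59, 2.59, 3.65 and 3.93 CPM in CA. It measured 2.85, 1.63, 2.51, 4.22 and 3.45 CPM in HS, 3.03, 3.63 and 2.95 CPM in HS_Chol2% and 11.9, 11.0, 8.40 and 8.77 CPM in Chol2%_CA. The Chol2%_CA libraries lay above all others, and Fbn1 rose by 1.27 ± 0.23 on the log2 scale against NC (adjusted p = 0.00031) and 1.64 ± 0.23 against CA (adjusted p = 8.71e-05). Thbs2, a matricellular thrombospondin, measured 0.143, 2.91, 1.56 and 2.56 CPM in NC and 2.59, 0.942, 1.78 and 2.55 CPM in CA. It measured 3.56, 1.96, 3.29, 3.54 and 2.70 CPM in HS, 1.44, 4.08 and 3.61 CPM in HS_Chol2% and 7.29, 7.22, 6.35 and 6.49 CPM in Chol2%_CA. All Chol2%_CA libraries lay above the rest, and Thbs2 rose by 1.92 ± 0.43 on the log2 scale (adjusted p = 0.00237).

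Thbs1, which can activate latent TGF-beta, rose by 1.41 ± 0.41 (adjusted p = 0.0154) and Dpt, dermatopontin, by 1.16 ± 0.35 (adjusted p = 0.0181). Neither was called without the negative-trend libraries (log2 1.27 ± 0.48, adjusted p = 0.0762, for Thbs1 and 1.06 ± 0.45, adjusted p = 0.113, for Dpt). Dpt was also not called against CA in that fit (1.25 ± 0.44, adjusted p = 0.056). Elastin (Eln), the fibulins Fbln1, Fbln2 and Fbln5, which link elastic fibres, and periostin (Postn) were not called in any comparison over all 20 libraries. On the 12 positive-trend libraries Eln (1.19 ± 0.40, adjusted p = 0.04) and Fbln5 (0.78 ± 0.25, adjusted p = 0.0316) rose against CA, and Fbln5 was lower in CA against NC (-0.68 ± 0.23, adjusted p = 0.0471). Over all libraries the log2 fold changes of these genes in Chol2%_CA against NC ran from -0.09 for Fbln5 through 0.10 for Postn, 0.52 for Fbln2 and 0.73 for Fbln1 to 0.85 for Eln.

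The small leucine-rich proteoglycans bind collagen fibres and shape them. Lum, lumican, measured 3.87, 3.88, 4.54 and 9.66 CPM in NC and 6.58, 3.06, 2.67 and 5.42 CPM in CA. It measured 7.40, 4.56, 7.22, 7.62 and 5.40 CPM in HS, 3.83, 5.29 and 5.09 CPM in HS_Chol2% and 16.8, 15.2, 12.0 and 12.3 CPM in Chol2%_CA. The Chol2%_CA libraries lay above all others, and Lum rose by 1.36 ± 0.30 on the log2 scale (adjusted p = 0.00183). Bgn, biglycan, measured 104, 128, 109 and 225 CPM in NC and 182, 110.2, 89.5 and 109 CPM in CA. It measured 220.2, 125, 160.2, 142 and 132 CPM in HS, 170.1, 183 and 168 CPM in HS_Chol2% and 299, 358, 216 and 194 CPM in Chol2%_CA. NC library 3 and HS library 0 reached into the Chol2%_CA range, and Bgn rose by 0.92 ± 0.26 on the log2 scale (adjusted p = 0.0139), a call lost without any 1 of NC libraries 0 and 2 and Chol2%_CA libraries 0 and 1 (adjusted p = 0.0510 to 0.0598).

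Dcn, decorin, lies 47.0 kb from Lum on chromosome 10 and was not called against NC. Dcn measured 96.8, 119, 96.7 and 249 CPM in NC and 156, 104, 92.7 and 111 CPM in CA. It measured 218, 133, 165, 148 and 126 CPM in HS, 141, 177 and 132 CPM in HS_Chol2% and 213, 201, 198 and 186 CPM in Chol2%_CA. NC library 3 and HS library 0 exceeded every Chol2%_CA library, and the log2 fold change was 0.51 ± 0.25 against NC (adjusted p = 0.165) and 0.79 ± 0.25 against CA (adjusted p = 0.0327). Without the negative-trend libraries Dcn rose against NC (0.87 ± 0.14, adjusted p = 0.000329). Vcan, the large proteoglycan of provisional matrix, had 1, 3, 1 and 1 reads in NC, 2, 0, 0, 2 and 1 in HS, 3, 3, 1 and 3 in CA and 1, 2 and 1 in HS_Chol2%. It had 23, 19, 10 and 7 reads in Chol2%_CA, all above every other library. The ratio of the summed 59 reads to the 6 in NC, per effective library size, was 7.97 (95% exact interval 3.45 to 22.6, counting error only). Fitted without the filter, among 21739 genes, Vcan rose by 2.90 ± 0.62 on the log2 scale (SE, adjusted p = 0.00139).

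All 3 crosslinking enzymes rose in Chol2%_CA against NC, with a median log2 fold change of 1.34. Lox, lysyl oxidase, measured 0.43, 0.831, 0.13 and 0.71 CPM in NC and 1.18, 0.589, 0.296 and 0.425 CPM in CA. It measured 0.569, 0.163, 0.471, 0.272 and 0.45 CPM in HS, 0.479, 0.604 and 0.164 CPM in HS_Chol2% and 4.77, 7.11, 2.64 and 1.73 CPM in Chol2%_CA. Each Chol2%_CA library, with 16 to 62 reads, lay above all others, with 1 to 10 reads, and Lox rose 7.56-fold by the fit (log2 2.92 ± 0.52, SE, adjusted p = 0.000268). The Lox value was 2.21 ± 0.57 without the negative-trend libraries (adjusted p = 0.0102). Lox passed the filter on low counts only through its Chol2%_CA libraries, so its entry into the test depended on the diet where it was high. Loxl1, which acts on elastin as well, measured 2.58, 3.32, 3.11 and 3.27 CPM in NC and 4.47, 1.53, 1.09 and 2.23 CPM in CA. It measured 4.70, 3.91, 2.51, 3.67 and 1.5 CPM in HS, 1.76, 3.17 and 1.97 CPM in HS_Chol2% and 8.61, 10.8, 7.82 and 4.11 CPM in Chol2%_CA. HS library 0 and CA library 0 exceeded the lowest Chol2%_CA library, and Loxl1 rose by 1.34 ± 0.38 on the log2 scale (adjusted p = 0.0117), which was 0.98 ± 0.37 and not called without the negative-trend libraries (adjusted p = 0.0729). Loxl2 measured 2.72, 2.77, 4.28 and 3.98 CPM in NC and 3.41, 2.24, 1.09 and 2.55 CPM in CA. It measured 4.13, 0.652, 2.20, 3.54 and 2.40 CPM in HS, 2.56, 3.78 and 2.63 CPM in HS_Chol2% and 9.27, 8.48, 5.76 and 4.76 CPM in Chol2%_CA. The Chol2%_CA libraries lay just above the rest, and Loxl2 rose by 1.03 ± 0.37 on the log2 scale (adjusted p = 0.0462). Without the negative-trend libraries the Loxl2 value was 0.67 ± 0.33 (adjusted p = 0.162), and its call was also lost without any 1 of NC libraries 0, 1 and 2 and Chol2%_CA libraries 0 and 1 (adjusted p = 0.0544 to 0.156).

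Acta2, smooth muscle actin, and Des, desmin, mark contractile stellate cells and also vascular smooth muscle. Acta2 measured 1.58, 3.88, 6.74 and 5.11 CPM in NC and 3.41, 2.36, 1.38 and 1.81 CPM in CA. It measured 3.70, 4.24, 4.55, 2.72 and 1.95 CPM in HS, 1.60, 13.4 and 5.58 CPM in HS_Chol2% and 10.7, 21.9, 6.45 and 4.55 CPM in Chol2%_CA. The Chol2%_CA libraries overlapped NC, HS and HS_Chol2% and lay above CA. Acta2 had a log2 fold change of 1.32 ± 0.53 against NC (adjusted p = 0.0769) and 2.28 ± 0.55 against CA (adjusted p = 0.0058). These were 0.41 ± 0.49 (adjusted p = 0.603) and 1.57 ± 0.52 (adjusted p = 0.0424) on the 12 libraries of positive trend. Des measured 2.72, 5.12, 4.15 and 10.7 CPM in NC and 5.05, 2.12, 3.36 and 3.19 CPM in CA. It measured 7.26, 4.72, 5.65, 5.17 and 4.95 CPM in HS, 6.23, 7.56 and 5.42 CPM in HS_Chol2% and 9.67, 15.7, 7.72 and 6.82 CPM in Chol2%_CA. NC library 3 lay inside the Chol2%_CA range, and Des had a log2 fold change of 0.82 ± 0.34 against NC (adjusted p = 0.0889) and 1.54 ± 0.35 against CA (adjusted p = 0.0035). On those 12 libraries Des passed against NC (0.84 ± 0.27, adjusted p = 0.0331).

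**Figure D3:**
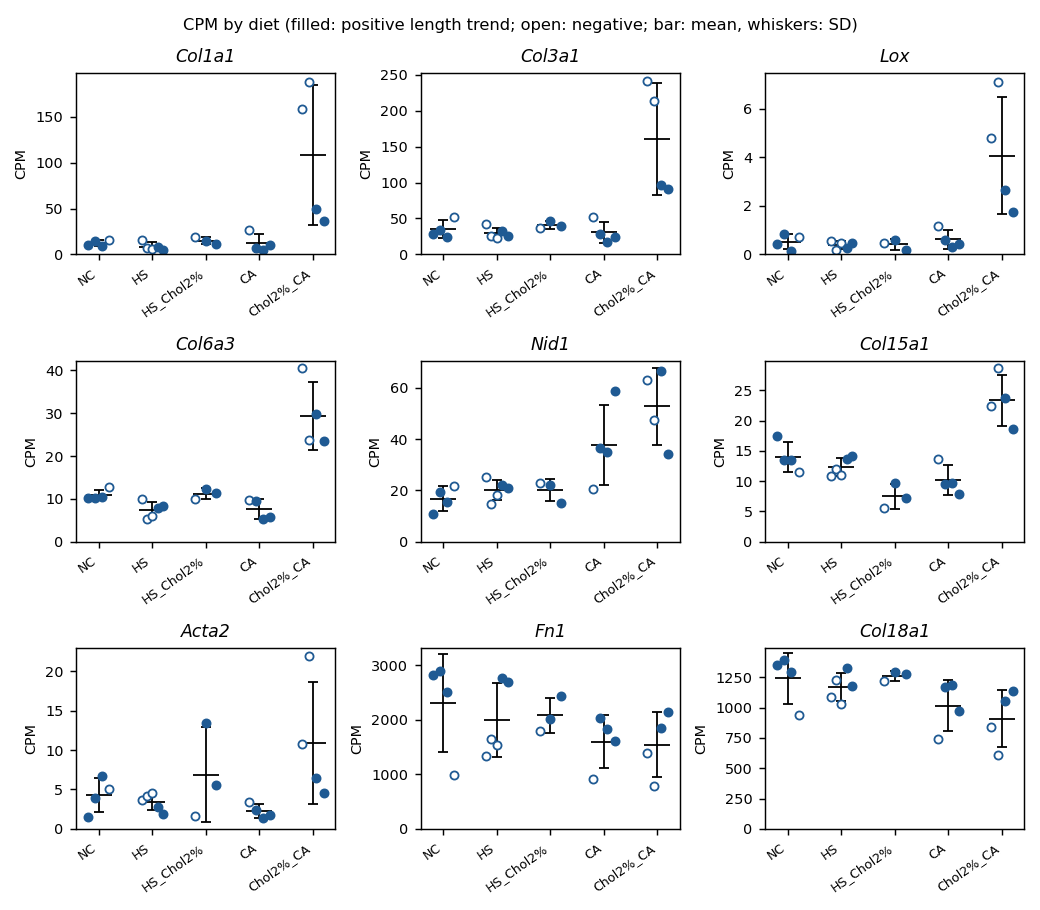
CPM (vertical axes, from 0) of 9 member genes by diet, with 1 point per library (open for a negative length trend), a bar for the diet mean and whiskers for the SD. Col1a1, Col3a1, Lox, Col6a3 and Col15a1 are highest in Chol2%_CA without overlap, Nid1 is high in CA and Chol2%_CA, and for Fn1 the open points are the lowest of each diet.

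Without the 8 negative-trend libraries 20 members rose in Chol2%_CA against NC, where 12.7% of 12421 genes were called higher. Of these 20, 17 were among the 22. The 12 libraries kept hold Chol2%_CA only as libraries 2 and 3. They were picked by a trend computed from these same counts, so such fits are not an independent check of the calls. In Chol2%_CA against CA 28 members rose on those 12 libraries (13.9% of genes), with 25 of the 26, and Lama2, Eln and Fbln5 were called there in addition. Against CA the log2 fold changes of Col1a1 and Col1a2 moved from 3.16 ± 0.54 and 2.54 ± 0.38 to 2.53 ± 0.28 and 1.82 ± 0.26, and both stayed called. In CA against NC 5 members, Col6a1, Col6a3, Col15a1, Fn1 and Fbln5, were lower on those libraries (11.6% of genes). In HS_Chol2% against NC, Bgn (0.63 ± 0.12, adjusted p = 0.00764) and Dcn (0.57 ± 0.14, adjusted p = 0.03) were higher (3.03% of genes). That comparison holds only HS_Chol2% libraries 1 and 2. It leaves out NC library 3, the highest NC library for both genes (225 CPM for Bgn and 249 CPM for Dcn).

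The effect of added cholesterol was called different between the cholic acid and sucrose diets for 7 members. The test rests on the HS_Chol2% libraries, which stand apart by mitochondrial tRNA reads, and that feature cannot be told apart from the diet. The cholesterol interaction is the log2 fold change of Chol2%_CA against CA minus that of HS_Chol2% against HS, which share no library. In that test 7 members were called higher (2.47% of all genes) and 0 lower (3.53%), with 20 higher and 0 lower at an unadjusted p under 0.05 and 11 higher and 0 lower by DESeq2. Col15a1 had log2 fold changes of 1.20 ± 0.19 with cholic acid and -0.72 ± 0.21 with sucrose, an interaction of 1.91 ± 0.29 (adjusted p = 0.000341). Lum had 1.67 ± 0.30 and -0.44 ± 0.33, an interaction of 2.11 ± 0.45 (adjusted p = 0.00638). Fbn1 had 1.64 ± 0.23 and 0.12 ± 0.26, an interaction of 1.52 ± 0.35 (adjusted p = 0.0131). The other 4 were Col1a2, Col3a1, Col6a3 and Loxl1, with interactions between 1.38 and 2.25. Col1a1 was not called there (2.34 ± 0.77, adjusted p = 0.081). Col1a2 moved from 1.88 ± 0.55 (adjusted p = 0.0468) to 1.08 ± 0.42 (adjusted p = 0.117) without the negative-trend libraries, and Loxl1 from 2.25 ± 0.58 (adjusted p = 0.0248) to 1.89 ± 0.63 (adjusted p = 0.0698), so that neither was called. That fit called 8 members (4.65% of genes), 5 of the 7 and also Col5a1, Dcn and Bgn, and with the length trend as a term Col1a2 was not called either. The count of 7 became 13 without CA library 0, 3 without CA library 2 or 3 or HS_Chol2% library 0, and 4 without HS_Chol2% library 2.

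**Figure D4:**
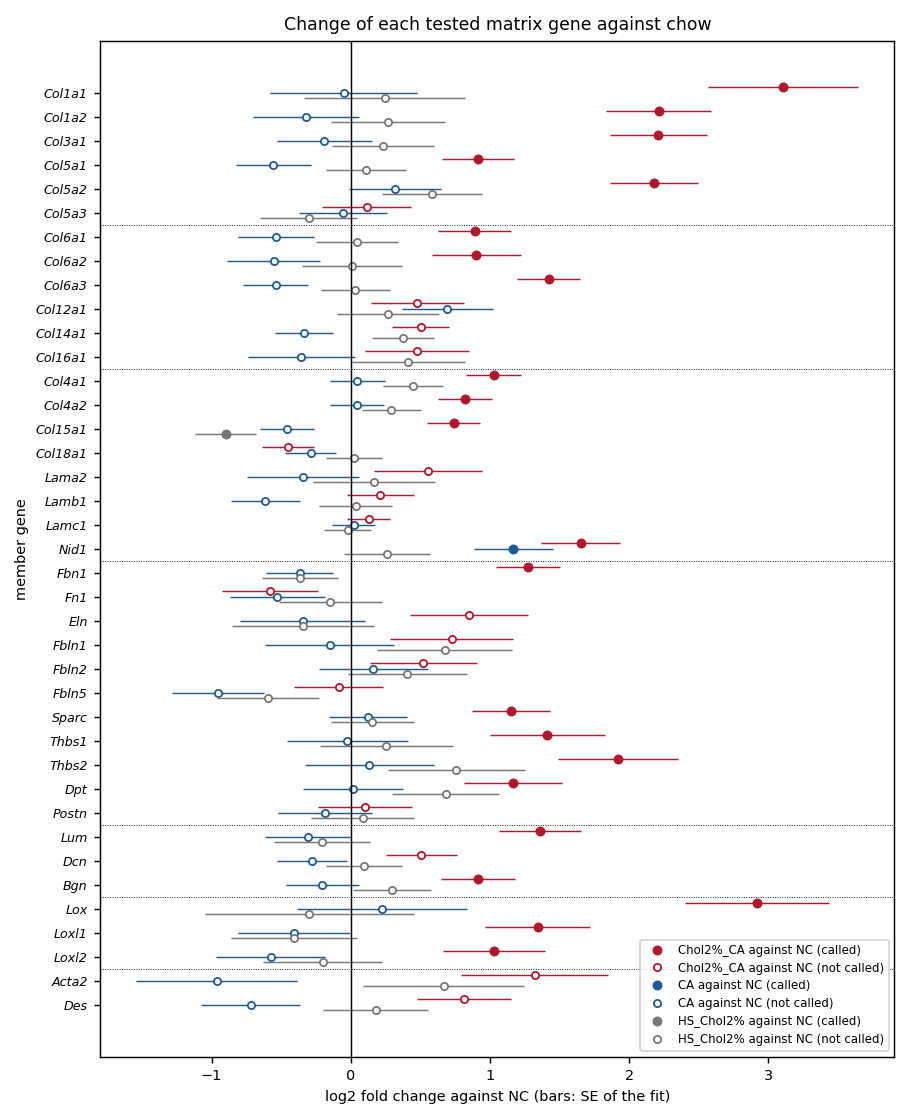
Log2 fold change against NC (horizontal axis, bars for the SE of the fit) of the 39 tested members (vertical axis, by role) for Chol2%_CA, CA and HS_Chol2%, with filled points where the adjusted p was under 0.05. The 22 filled Chol2%_CA points lie to the right of 0, from 0.74 for Col15a1 to 3.11 for Col1a1, while CA has 1 filled point (Nid1) and HS_Chol2% 1 (Col15a1).

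Genes of collagen maturation hydroxylate, fold and trim procollagen. Of 25 such genes listed, 24 had a row and 21 were tested, with 6 higher and 1 lower in Chol2%_CA against NC and a median log2 fold change of 0.51, beside 15% and 9.35% of all genes called in these directions. Bmp1, a procollagen C-proteinase, fell (-0.75 ± 0.11, adjusted p = 4.6e-05), and Pcolce2, an enhancer of that cleavage, rose (1.84 ± 0.42, adjusted p = 0.00278). In CA against NC, which shares the NC libraries, Bmp1 was lower (-0.999 ± 0.11, adjusted p = 9.54e-06) and Pcolce2 higher (1.97 ± 0.42, adjusted p = 0.00445). In HS_Chol2% against NC 1 gene of the list was called, Pcolce2, higher (1.77 ± 0.46, adjusted p = 0.0493). These Pcolce2 calls share the NC libraries, where it averaged 0.649 CPM, not far above the 0.389 to 0.430 CPM of 3 reads. Its means were 2.26 CPM in HS_Chol2%, 2.38 CPM in Chol2%_CA and 2.62 CPM in CA. In Chol2%_CA against CA 7 were higher and 1 lower (13.4% and 7.8% of all genes), led by Adamts2, a procollagen N-proteinase (1.34 ± 0.27, adjusted p = 0.00166), and Plod2, a lysyl hydroxylase (1.85 ± 0.40, adjusted p = 0.00255).

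Across the 20 libraries the members whose CPM ranked most like Col1a1 were Col3a1 (Spearman's rho 0.91), Col1a2 (0.90) and Col6a1 (0.86), and the least alike were Col12a1 (-0.18), Fn1 (-0.42) and Col18a1 (-0.44). Within the 16 libraries outside Chol2%_CA the values for Col3a1, Col1a2 and Col6a1 were 0.83, 0.81 and 0.75. These libraries share diets and length trends, so the values describe and test nothing.

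Marker genes of liver cell types gave the following levels beside the matrix genes, and their counts stand beside 15% of all genes called higher and 9.35% called lower in Chol2%_CA against NC. The summed CPM of 14 stellate cell markers, of which Ecm1, Reln and Colec11 were the most abundant, was 227 to 491 in NC, 218 to 269 in CA and 280.2 to 323 in Chol2%_CA. Of the 14, 2 (Pdgfrb and Cygb) were called higher in Chol2%_CA against NC, a share near that of all genes. Ecm1 weighs heavily in the stellate sum, with means of 153 CPM in NC and 98.9 CPM in Chol2%_CA. In that comparison 10 of the 14 had a positive log2 fold change. The 12 Kupffer cell and macrophage markers, led by Cd5l, C1qb and C1qa, summed to 114 to 184 CPM in NC and 1079 to 2917 CPM in Chol2%_CA, with 12 of 12 higher. The 12 hepatocyte markers, led by Alb, Apoa1 and Cyp2e1, summed to 135547 to 142589 CPM in NC and 65286 to 81857 CPM in Chol2%_CA, with 7 of 12 lower. Portal fibroblast markers (Thy1, Mfap4 and Entpd2 leading) summed to 6.22 to 11.9 CPM in NC and 10.8 to 30.0 CPM in Chol2%_CA, with 1 of 4 tested higher (Thy1). Smooth muscle markers (Mylk, Tagln and Smtn leading) summed to 127 to 143 CPM in NC and 134 to 154 CPM in Chol2%_CA, with 1 of 4 tested higher (Tagln), and Myocd had no read in either diet. Mylk makes up most of the smooth muscle sum, with means of 112 CPM in NC and 109 CPM in Chol2%_CA. Mesothelial markers (Gpm6a, Upk3b and Msln leading) summed to 5.06 to 17.3 CPM in NC and 2.18 to 9.80 CPM in Chol2%_CA, with 1 of 4 tested lower. Sinusoidal endothelial markers (Ptprb, Dnase1l3 and Stab2 leading) summed to 282 to 531 CPM in NC, and to 183 CPM in Chol2%_CA library 0 against 532 to 580.1 CPM in the other 3 Chol2%_CA libraries, with 3 of 10 higher. Cholangiocyte markers (Sox9, Bicc1 and Epcam leading) summed to 27.6 to 53.4 CPM in NC and 35.7 to 63.6 CPM in Chol2%_CA with 1 of 7 tested higher, again near the share of all genes. The part of these cell types in the matrix gene results was not tested.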

How the data were processed

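RNA sequencing of whole mouse liver was analysed from the read counts per gene that the authors deposited as 1 table. Per the labels' protocols, stranded total RNA libraries were read from 1 end over 50 bp, and per the submitters' processing notes STAR 2.6.1c aligned the reads to mm10 and counted them. The strand counted is not given in the sources used here. Of 23 value columns 20 matched a diet by name; the remaining 3 fitted no label and were set aside, so HS_Chol2%_CA was not analysed here, and HS_Chol2% had 3 columns for 4 labelled samples. Column numbers could not be tied to single samples. Of the symbols, 29014 matched GENCODE M21 names (GRCm38) and 1876 an older name, and 3546 did not match.

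All 20 libraries were fitted with edgeR 4.0.16 in R 4.3.3 (TMM, filterByExpr, robust quasi-likelihood test, 12595 genes), and genes were called at a Benjamini-Hochberg adjusted p under 0.05. Errors beside log2 values are SE from the fit. Length trend is the sign of Spearman's rho between merged exon length and a library's log2(CPM + 1) deviation from the gene mean. DESeq2 1.42.0, other scalings, filters, left-out libraries and fits by length trend were alternatives. The scripts were tested on simulated counts. Replicate pairs differed by at least 4.63 chi-square per degree of freedom, so none was counted as a repeat.

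Member lists were chosen with earlier results of these data known. CPM in every library are given for the 2 most abundant members of each role, the member with the largest change in Chol2%_CA, and up to 3 members with the smallest adjusted p per other comparison; of the collagen maturation genes the 2 called with the smallest adjusted p, and of marker lists the 3 most abundant, are named. A pair of cell type marker genes is not reported here and was left out of the marker lists. Intervals cover counting error only. Promoter sequences are RefSeq's (GRCm38.p6).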

Additional observations from a re-analysis of the deposited data

Results flagged for a closer look

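Within the 4 NC libraries, an outlier test marked library 3 as above the other 3 for 4 of the members whose values are given in full. Col5a3 measured 111 CPM there and at most 53.7 CPM in the others, Dcn 249 against at most 119 CPM, Lum 9.66 against at most 4.54 CPM, and Col6a3 12.8 against at most 10.5 CPM. This outlier test was made on 84 sets of 4 or 5 libraries, and chance marks about 1 set in 20. All 4 sets marked were marked for the same library, and the 84 sets share libraries. The count therefore cannot be set against that rate. NC library 3 is the only NC library with a negative length trend, and the part of that trend in these values was not tested.

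The effect of added cholesterol was called different between the cholic acid and the sucrose diets in 7 members by the interaction test. The HS_Chol2% libraries in that test stand apart by mitochondrial tRNA reads, which cannot be told apart from the diet. The log2 interactions were 1.88 for Col1a2, 1.95 for Col3a1, 1.38 for Col6a3, 1.91 for Col15a1, 1.52 for Fbn1, 2.11 for Lum and 2.25 for Loxl1. Without the negative-trend libraries Col1a2 (1.08, adjusted p = 0.117 by edgeR) and Loxl1 (1.89, adjusted p = 0.0698 by edgeR) were not called.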

How the results depend on the processing

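The 22 members called higher in Chol2%_CA against NC became 15 to 26 when 1 library was left out, and 20 to 23 under other scalings, filters, tests and fits by length trend. The 26 against CA became 21 to 27 and 25 to 28. Without the 13 members that overlap a gene on the other strand, the counts were 12 against NC, 17 against CA and 4 in the interaction, with 0 higher in CA against NC and 0 lower in HS_Chol2% against NC. Of the calls lost, 9 against NC, 9 against CA and 2 in the interaction were of members not in that fit. Col6a2 against NC (adjusted p = 0.0542) and Col1a2 in the interaction (adjusted p = 0.0538) were in it and no longer called. The 1 member lower in HS_Chol2% against NC became 0 under upper-quartile scaling, the stricter filter (2 CPM in 4 libraries) and a fit of only the diets compared; the cause was not tested. Members lower in Chol2%_CA against NC numbered 1 under DESeq2, with positive-trend libraries only and with the trend as a term, and the last gave 1 lower in CA against NC. Positive-trend libraries only gave 2 higher in HS_Chol2% against NC and 5 lower in CA against NC. DESeq2 called 11 in the interaction. Leaving out 1 library gave 0 to 1 lower in HS_Chol2% against NC, 0 to 1 lower in Chol2%_CA against NC, 0 to 1 higher and 0 to 1 lower in CA against NC, and 3 to 13 higher in the interaction. Col5a3 in Chol2%_CA against NC, not called, ran from -0.0173 (without NC library 2, and -0.0100 without NC library 1) to 0.56 (without NC library 3). Among the single-gene values under alternatives 431 kept direction and side of the threshold, 24 were no longer called, 13 became called and 2 changed sign.

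No paired analysis was possible because the table's columns could not be matched to the labelled sample numbers. Members with few reads outside Chol2%_CA, such as Lox (1 to 10 per library) and Vcan (0 to 3), are limited by depth there.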
